A study of Homo sapiens with 6 samples.

Results

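The HLA class I and antigen presentation genes described here are HLA-B, HLA-C, HLA-E, HLA-F, HLA-G, B2M, TAP1, TAP2 and NLRC5. They were chosen by name and make up 9 of the 48183 gene symbols in the deposited count table. Each symbol was summed over all Ensembl identifiers that carry it, because genes of the HLA region are also annotated on alternative haplotype sequences of the genome. The 9 symbols cover 54 of 61196 identifiers. The table comes from bulk RNA-seq of 6 libraries of human embryonic stem cells (ESCs), 4 of naive cells and 2 of primed cells. Primed ESCs resemble the epiblast after implantation, and naive ESCs resemble the epiblast before it. All 6 libraries came from lines with the EOS reporter, a GFP cassette driven by the distal Oct4 enhancer. The labels name the parental line H1, and the text of the study names H9.

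AICAR, an AMPK activator, was added to PXGL medium for an induction counted as 14 days, and a lower dose was kept on for a time after the first passage. The AICAR 1 and AICAR 2 libraries came from cells passaged 14 or 15 times after that induction, and it is not stated which is which. VPA (valproic acid, a histone deacetylase inhibitor) was added to basal medium with PD0325901 and LIF, and the cells were taken 12 passages after day 9 of that protocol. CA-p38, a constitutively active p38 kinase under a doxycycline-inducible promoter, was switched on in PXGL medium, and the cells were taken 12 passages after day 7 of that protocol. The AICAR and VPA cells came from the primed EOS line and the CA-p38 cells from the primed CA-p38 EOS line. Each of these lines gave 1 library without naive induction. When the CA-p38 EOS line was made, doxycycline was given and cells that expressed the construct's fluorescent marker mCherry were sorted. Naive cells were grown in PXGL and sorted for CD75 and SUSD2. The study's methods give mouse feeder cells for naive culture, but its results also describe CA-p38 cells moved to feeder-free PXGL. Which held for each library is not stated. Primed cells were grown on Matrigel in StemFit AK02N and were taken without this sort. Medium, any feeder cells and sorting therefore cannot be told apart from the naive or primed state. Nothing states that the libraries of a state were separate cultures, so the p-values measure the spread between these libraries.

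HLA class I molecules display peptides from inside the cell to T cells and natural killer (NK) cells. Each consists of a heavy chain, encoded by an HLA gene, and the light chain beta-2-microglobulin, encoded by B2M. The TAP1 and TAP2 proteins form the transporter that carries peptides into the endoplasmic reticulum, and NLRC5 is the transactivator that drives transcription of class I genes. HLA-B and HLA-C are classical, highly polymorphic heavy chains, whereas HLA-E, HLA-F and HLA-G are nonclassical and vary little between people. Human pluripotent stem cells are known for low surface class I.

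Library totals ran from 46823699 to 54277064 counts. All 6 naive markers were higher in the naive libraries and all 6 primed markers were lower, and the summed naive markers reached 1854 to 2155 CPM (counts scaled to library size) in naive against 7.67 to 9.88 in primed libraries. DPPA5 led the naive markers (log2 fold change 11.2), and SFRP2 (-10.7) and CD24 (-5.36) the primed ones. Of all 26497 genes tested, 53.1% passed the test between the states (quasi-likelihood F test of edgeR with a Benjamini-Hochberg threshold of 0.05). In naive cells 26% of genes were higher and 27% were lower. The naive and primed libraries did not overlap for 64.9% of genes. CPM are scaled by TMM factors throughout, and log2 fold changes are naive against primed with their standard error (SE).

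All 9 genes passed the test, 5 higher and 4 lower in naive cells, beside the 53.1% of all genes that passed. HLA-E, HLA-F, HLA-G, TAP1 and NLRC5 were higher, and HLA-B, HLA-C, B2M and TAP2 were lower. The naive and primed libraries did not overlap for any of the 9, against the 64.9% given above. The median log2 fold change of the 9 was 0.72, and that of all genes tested was 0.11. In bulk RNA, fewer cells that express a gene and less RNA per cell cannot be told apart.

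**Figure D1:**
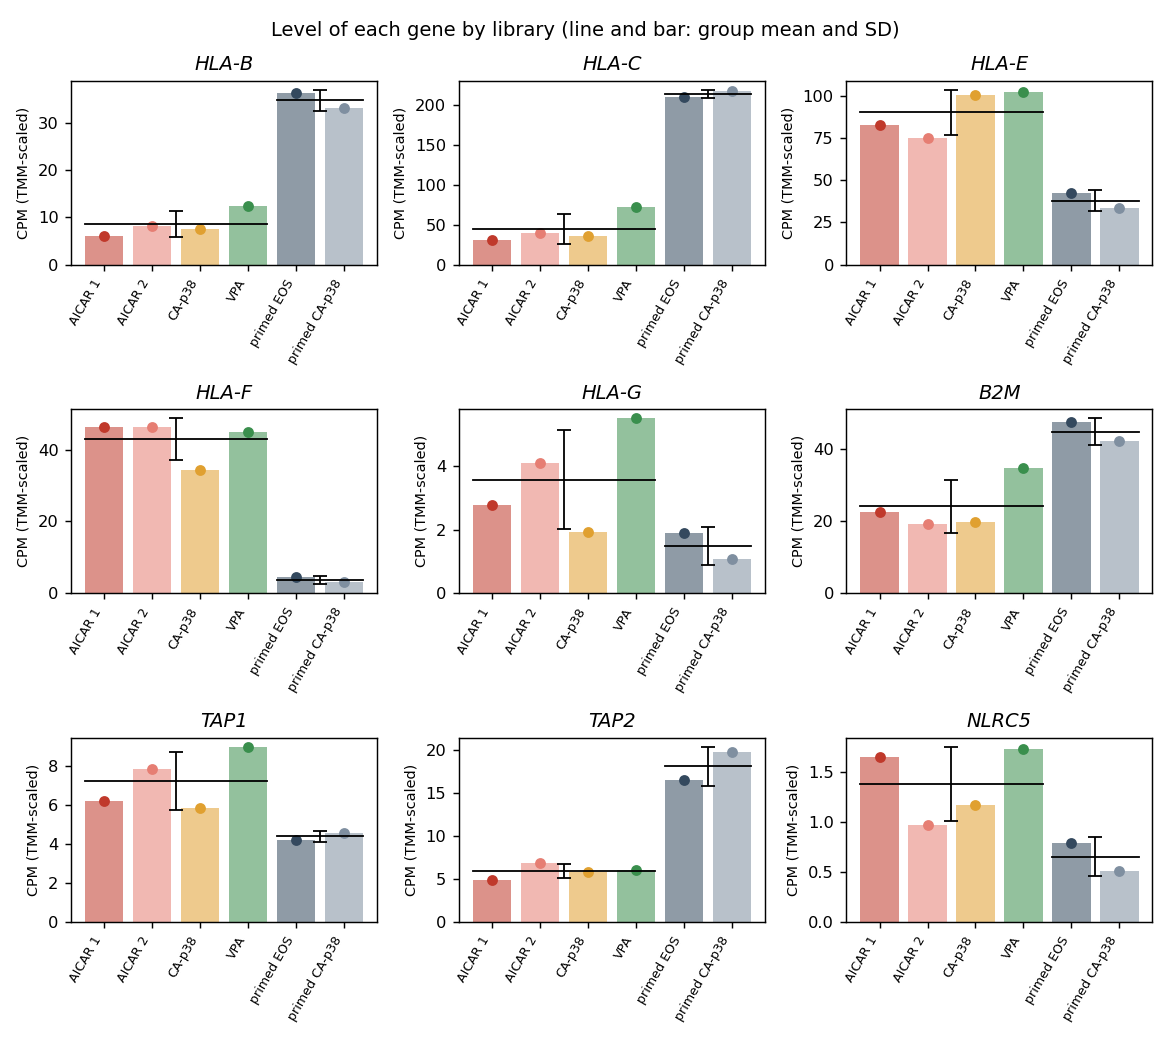
Level of each gene (y axis, TMM-scaled CPM from 0, scale set per gene) in the 4 naive and 2 primed libraries (x axis). Points and bars are single libraries, and the black line and error bar are the mean and SD of the naive (n = 4) and primed (n = 2) libraries. HLA-F stood at 34.4 to 46.4 CPM in naive against 2.99 and 4.51 CPM in primed libraries, and HLA-C at 31.1 to 72.4 against 210 and 217.

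Of the 9 genes, 7 lie in the major histocompatibility complex on chromosome 6 (GRCh38 with GENCODE release 44), in the order HLA-F (chr6:29722775-29738528), HLA-G (chr6:29826967-29831125), HLA-E (chr6:30489509-30494194), HLA-C (chr6:31268749-31272130), HLA-B (chr6:31353872-31367067), TAP2 (chr6:32821833-32838739) and TAP1 (chr6:32845209-32853816). HLA-C, HLA-B, TAP2 and TAP1 are on the minus strand and the others on the plus strand. B2M lies at chr15:44711358-44718851 and NLRC5 at chr16:56989485-57083531, both on the plus strand. Genes of both directions lay within the complex, with the telomeric HLA-F, HLA-G and HLA-E higher and the more centromeric HLA-C and HLA-B lower in naive cells.

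The promoters of the heavy chain genes are shown because related sequences accompanied opposite changes. RefSeq (GRCh38.p14) gave a window for 7 of the 9 genes, and none for HLA-E and NLRC5. The lines below give the 250 bases before the start of HLA-B (chr6:31357180-31357429, minus strand), HLA-C (chr6:31272093-31272342, minus strand), HLA-F (chr6:29723184-29723433, plus strand) and HLA-G (chr6:29827575-29827824, plus strand), each 5′ to 3′ along its gene. Of 3 RefSeq starts of HLA-G, the window most like that of HLA-C was taken. Capitals mark matches on either strand to CCAAT, the binding motif of NF-Y, to TGACG, the core of the cAMP response element bound by CREB and ATF factors, to GAAA followed by any 2 bases and GAAA, the core of the interferon-stimulated response element (ISRE), or to the NF-kB consensus.
HLA-B: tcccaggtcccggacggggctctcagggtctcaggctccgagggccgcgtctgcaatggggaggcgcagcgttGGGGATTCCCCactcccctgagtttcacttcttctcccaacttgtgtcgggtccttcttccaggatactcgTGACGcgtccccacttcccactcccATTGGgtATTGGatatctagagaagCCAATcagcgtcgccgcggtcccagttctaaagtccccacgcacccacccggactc
HLA-C: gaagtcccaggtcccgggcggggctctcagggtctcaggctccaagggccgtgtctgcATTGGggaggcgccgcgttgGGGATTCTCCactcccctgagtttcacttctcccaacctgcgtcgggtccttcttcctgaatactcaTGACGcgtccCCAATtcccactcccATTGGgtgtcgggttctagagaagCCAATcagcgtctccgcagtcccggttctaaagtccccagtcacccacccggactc
HLA-F: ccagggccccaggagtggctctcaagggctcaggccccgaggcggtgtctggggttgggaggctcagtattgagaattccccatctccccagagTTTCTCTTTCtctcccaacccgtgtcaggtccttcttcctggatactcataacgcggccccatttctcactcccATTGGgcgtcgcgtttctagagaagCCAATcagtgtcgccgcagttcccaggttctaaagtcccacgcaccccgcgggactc
HLA-G: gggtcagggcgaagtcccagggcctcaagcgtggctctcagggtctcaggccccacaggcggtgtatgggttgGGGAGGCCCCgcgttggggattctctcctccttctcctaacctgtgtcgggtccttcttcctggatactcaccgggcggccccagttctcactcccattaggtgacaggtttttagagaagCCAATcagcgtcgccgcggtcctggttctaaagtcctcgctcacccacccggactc

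The HLA-B and HLA-C windows, of the genes that fell, were identical at 89% of aligned positions. The HLA-F window matched that of HLA-C at 78.2%, and the HLA-G window at 77.9%. A match to CCAAT occurred in all 4 windows and in 32% of all 35116 windows of this length. TGACG occurred in the HLA-B and HLA-C windows, 102 and 101 bases before the start, and not in those of HLA-F and HLA-G, beside 21.2% of all windows. An exact match to the ISRE core occurred in the HLA-F window and not in the other heavy chain windows, beside 3.02% of all windows. Inexact matches were not searched for any motif, so a window without a match may still hold a diverged site. The NF-kB consensus occurred in the HLA-B, HLA-C and HLA-G windows and in 9.96% of all windows, and the 2 matches of HLA-B overlapped each other. The HLA-G match lay just upstream of the stretch that resembles the matched site of HLA-C, and that stretch itself held no match. The B2M window held all 4 motifs, and that of TAP2 held TGACG and the ISRE core. The more upstream of 2 TAP1 windows held CCAAT, the ISRE core and the NF-kB consensus. These are matches of letters, and binding was not measured.

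HLA-C, a classical heavy chain that is the main class I ligand of killer-cell immunoglobulin-like receptors, was the most abundant of the 9 genes in primed cells. Its level was 72.4 CPM in VPA, 36.5 in CA-p38, 31.1 in AICAR 1 and 39.2 in AICAR 2, and the primed EOS and primed CA-p38 libraries stood at 210 and 217. All naive libraries lay far below both primed libraries, and VPA was the highest of the naive ones. HLA-C fell by 2.25 on the log2 scale (SE 0.24, adjusted p = 5.39e-06, edgeR). Read on the identifier with the most counts instead of the sum, HLA-C fell by 3.99, and the split between identifiers is given below.

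HLA-B, the other classical heavy chain, had a level of 12.4 CPM in VPA, 7.62 in CA-p38, 6.13 in AICAR 1 and 8.13 in AICAR 2. The primed libraries stood at 36.4 (primed EOS) and 33.3 CPM (primed CA-p38). As for HLA-C, VPA was the highest naive library and remained well below the primed ones. HLA-B fell by 2.02 on the log2 scale (SE 0.22, adjusted p = 5.9e-06, edgeR).

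HLA-F, a nonclassical heavy chain that also reaches the surface without peptide, changed in the other direction and by more. It was at 44.9 CPM in VPA, 34.4 in CA-p38, 46.3 in AICAR 1 and 46.4 in AICAR 2, and the primed EOS and primed CA-p38 libraries stood at 4.51 and 2.99. The naive libraries were all high, with CA-p38 the lowest of them. The log2 fold change was 3.52 (SE 0.22, adjusted p = 2.59e-08, edgeR). HLA-F-AS1, an antisense transcript that overlaps HLA-F, did not pass the test (log2 fold change -0.66, SE 0.30, adjusted p = 0.084, edgeR). Whether counting used the strand is not given in the sources used here, so reads from the overlap cannot be assigned with certainty.

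HLA-E presents leader peptides of other class I chains to the NKG2A receptor of NK cells. Its level was 103 CPM in VPA, 101 in CA-p38, 82.7 in AICAR 1 and 75.3 in AICAR 2, and the primed EOS and primed CA-p38 libraries stood at 42.2 and 33.5. Every naive library was above both primed libraries. The log2 fold change was 1.25 (SE 0.16, adjusted p = 1.96e-05, edgeR).

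HLA-G, known from the trophoblast at the maternal-fetal interface, was low in every library. It stood at 5.5 CPM in VPA, 1.92 in CA-p38, 2.78 in AICAR 1 and 4.09 in AICAR 2, and the primed EOS and primed CA-p38 libraries stood at 1.90 and 1.06. CA-p38 was barely above primed EOS, with 97 against 94 counts. The log2 fold change was 1.27 (SE 0.43, adjusted p = 0.0254, edgeR), and the adjusted p ran from 0.00417 to 0.284 over 16 alternatives. The call was lost without AICAR 2 (adjusted p = 0.0521), without VPA (0.06), without primed CA-p38 (0.2) and on the leading identifier alone (0.284, all edgeR).

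B2M, the light chain of class I molecules, was at 34.8 CPM in VPA, 19.7 in CA-p38, 22.5 in AICAR 1 and 19.1 in AICAR 2. The primed libraries stood at 47.3 and 42.1 CPM. All naive libraries were lower, and VPA came closest to the primed level. B2M fell by 0.90 on the log2 scale (SE 0.21, adjusted p = 0.00274, edgeR).

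TAP2, 1 of the 2 subunits of the peptide transporter, fell by 1.62 on the log2 scale (SE 0.19, adjusted p = 9.97e-06, edgeR). Its level was 6.04 CPM in VPA, 5.72 in CA-p38, 4.90 in AICAR 1 and 6.83 in AICAR 2, and the primed EOS and primed CA-p38 libraries stood at 16.4 and 19.7. The naive libraries lay close together and far below the primed ones. TAP1, the partner subunit, was at 9.0 CPM in VPA, 5.82 in CA-p38, 6.20 in AICAR 1 and 7.87 in AICAR 2, against 4.18 and 4.58 in the primed libraries. The partners thus differed in opposite directions.

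TAP1 had a log2 fold change of 0.72 (SE 0.25, adjusted p = 0.0262, edgeR), and the adjusted p ran from 0.0151 to 0.144 over 16 alternatives. Leaving out AICAR 2 (adjusted p = 0.0509), VPA (0.0655), primed EOS (0.144) or primed CA-p38 (0.0802) ended the call, as did the parental line as a block (0.0574) and the leading identifier alone (0.114, all edgeR). The call on TAP2 was kept in all 16 alternatives. TAP1 overlaps PSMB9 and PSMB8-AS1 on the other strand, of which PSMB9 did not pass the test and PSMB8-AS1 was too low to be tested. TAP2 overlaps a readthrough gene, and HLA-G overlaps the pseudogene HCG4P8, with the same uncertainty.

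NLRC5 was the least abundant of the 9, at 1.74 CPM in VPA, 1.17 in CA-p38, 1.66 in AICAR 1 and 0.967 in AICAR 2, and the primed EOS and primed CA-p38 libraries stood at 0.788 and 0.511. These levels rest on 25 to 91 counts, and AICAR 2 was little above primed EOS. The log2 fold change was 1.09 (SE 0.42, adjusted p = 0.0462, edgeR). The call was lost in 11 of 16 alternatives, with adjusted p from 0.0295 to 0.257. It was lost without AICAR 1 (0.0984), CA-p38 (0.0594), VPA (0.096), primed EOS (0.0668) or primed CA-p38 (0.257, all edgeR), and also with the parental line as a block (0.0761). NLRC5, the transactivator, thus had a higher fitted level where HLA-B, HLA-C and B2M were lower.

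The counts of a symbol were split over its identifiers in different ways. Mapping was to transcript sequences that include the haplotype copies, and how reads that fit several near-identical copies were divided is uncertain. Calls on the copies of a symbol are therefore not independent of each other or of the call on the sum. HLA-E was divided almost evenly over 7 identifiers, each with 12.8 to 16.4% of its counts, and all 7 were higher in naive cells, beside 25.6% of the 29925 identifiers tested apart. The HLA-F identifier on the chromosome took 29.1 to 33.5%, and all 7 HLA-F identifiers were higher, with log2 fold changes of 3.24 to 3.74. All 8 TAP2 identifiers and both B2M identifiers were lower, beside 26.4% of all identifiers. The 8 TAP1 identifiers had log2 fold changes of 0.42 to 1.0 and did not pass the test when taken apart, with a lowest adjusted p of 0.0673 (edgeR). Of the 6 HLA-G identifiers tested 1 passed.

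HLA-B had 6 identifiers, of which 5 were lower in naive cells. The identifier on the chromosome, ENSG00000234745, held only 2.03 to 8.31% of HLA-B counts and did not pass the test (log2 fold change -0.57, SE 0.57, adjusted p = 0.426, edgeR). Most HLA-B counts thus stood on haplotype copies in every library.

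HLA-C identifiers fell into 2 sets with different size of change. ENSG00000233841 and ENSG00000204525, the latter on the chromosome, together stood at 139 and 145 CPM in the primed libraries and at 3.65 (AICAR 1), 7.89 (AICAR 2), 4.86 (CA-p38) and 18.8 CPM (VPA) in the naive ones. The other 5 together stood at 73.5 and 74.0 CPM in the primed and at 27.3, 31.2, 31.5 and 53.2 CPM in the same naive libraries. The primed mean was thus 16.1 times the naive mean for the first set and 2.06 times for the second. The first set held 65.3 and 66.2% of HLA-C counts in the primed libraries, 11.8 to 20.2% in AICAR and CA-p38 libraries and 26.1% in VPA. The sets were chosen after their values were seen and were not tested against each other, although all 7 identifiers passed the test of naive against primed on their own.

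**Figure D2:**
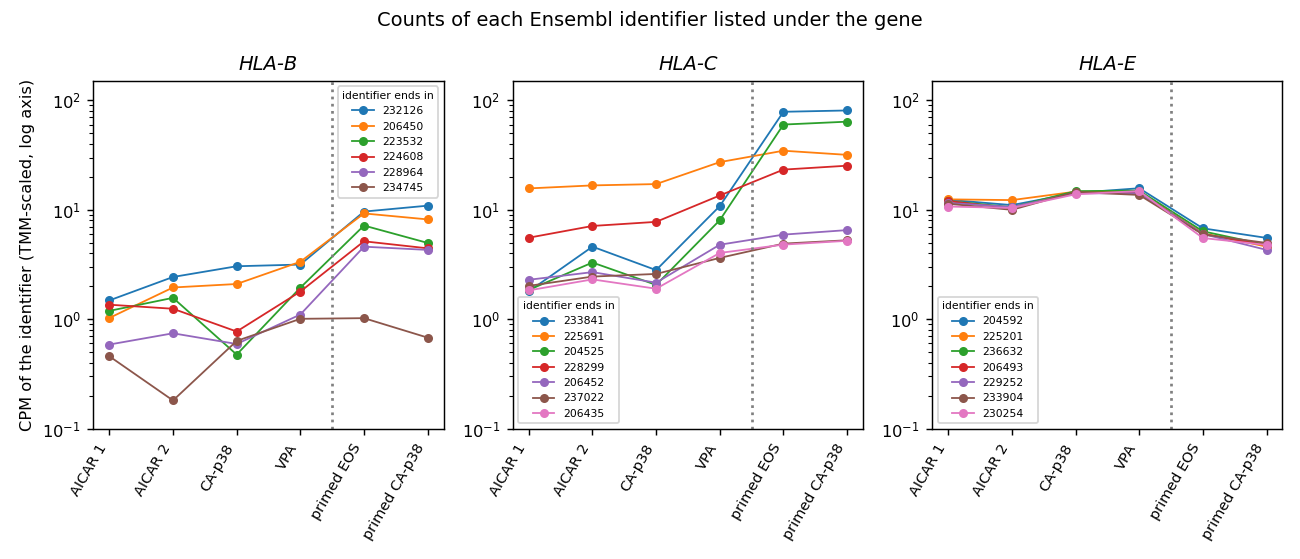
Level of each Ensembl identifier listed under HLA-B, HLA-C and HLA-E (y axis, TMM-scaled CPM, log axis) in each library (x axis), with 1 coloured line per identifier and a dotted line between naive and primed libraries. For HLA-C, 2 identifiers ran from 3.65 to 18.8 CPM together in naive to 139 and 145 CPM in primed libraries, while the 7 HLA-E identifiers ran close together.

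Levels per kilobase divide the summed counts by the exon length of the chromosome copy, so they compare different genes only approximately. On this scale HLA-C made up 77.4 and 81.3% of the 5 heavy chain genes in the primed libraries. In naive libraries its share was 36.0% in VPA, 24.4% in CA-p38, 22.9% in AICAR 1 and 27.8% in AICAR 2. HLA-E took 43.8 to 57.7% of the naive sum and 10.8 to 13.4% of the primed sum. HLA-F took 13.0 to 19.7% of the naive and 0.648 to 0.966% of the primed sum. With the mean transcript length in place of the exon length, the HLA-F share was 25.9 to 36.3% of the naive and 1.51 to 2.24% of the primed sum. By exon length the leading heavy chain transcript was thus HLA-C in both primed libraries and HLA-E in all 4 naive libraries.

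The summed level of the 5 heavy chain genes was 54.4 (AICAR 1), 56.3 (AICAR 2), 59.7 (CA-p38) and 80.2 (VPA) CPM per kilobase in naive cells, against 108 and 107 in primed cells. Over all 9 genes, the order of mean levels per kilobase in primed cells was HLA-C (85.2 ± 2.14, SD, n = 2), B2M (14.3 ± 1.19), HLA-E (13.0 ± 2.10), HLA-B (7.54 ± 0.481), TAP2 (1.75 ± 0.221), TAP1 (0.925 ± 0.0593), HLA-F (0.868 ± 0.249), HLA-G (0.840 ± 0.335) and NLRC5 (0.0525 ± 0.0158). B2M and HLA-E, and TAP1, HLA-F and HLA-G, were not separated beyond their spread. In naive cells the order was HLA-E (30.9 ± 4.59, SD, n = 4), HLA-C (17.9 ± 7.45), HLA-F (9.96 ± 1.34), B2M (7.70 ± 2.34), HLA-G (2.03 ± 0.888), HLA-B (1.85 ± 0.582), TAP1 (1.53 ± 0.313), TAP2 (0.567 ± 0.0771) and NLRC5 (0.112 ± 0.0303). HLA-C and HLA-F, HLA-F and B2M, and HLA-G, HLA-B and TAP1 lay within their spread. With the mean transcript length in place of the exon length, HLA-F moved above HLA-C in naive cells, and HLA-G moved below HLA-B and TAP1. In primed cells HLA-F moved to rank 5, above TAP2 and TAP1.

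**Figure D3:**
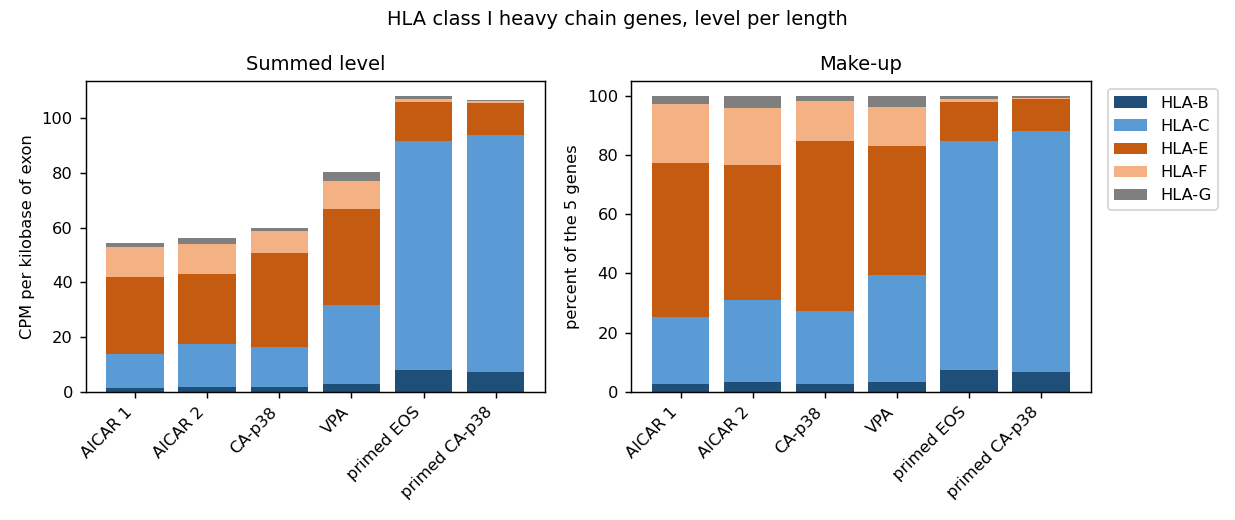
Left, summed level of the 5 heavy chain genes (y axis, CPM per kilobase of exon, from 0) and right, their make-up (y axis, percent of the sum) in each library (x axis). HLA-C, in light blue, fills 77.4 and 81.3% of the primed bars, and HLA-E, in dark orange, fills 43.8 to 57.7% of the naive bars.

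Each naive library was also set beside its own parental primed library, with 95% Clopper-Pearson intervals that cover counting error only. HLA-F was 10.3 times its parental level in AICAR 1 (interval 8.95 to 11.8), 10.3 times in AICAR 2 (8.97 to 11.9), 9.94 times in VPA (8.68 to 11.5) and 11.5 times in CA-p38 (9.72 to 13.7). The 4 naive libraries, from 3 kinds of induction, gave overlapping intervals for HLA-F. HLA-C was 0.148 times its parental level in AICAR 1 (0.141 to 0.156), 0.187 in AICAR 2 (0.178 to 0.196), 0.168 in CA-p38 (0.16 to 0.176) and 0.345 in VPA (0.332 to 0.358). VPA thus kept more HLA-C than the other inductions by more than counting error, with 1 VPA library and no replicate of it.

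The same held for B2M, at 0.735 times its parental level in VPA (0.691 to 0.781) and 0.404 to 0.475 times in the other naive libraries. HLA-B was 0.341 times its parental level in VPA (0.311 to 0.373) and 0.169 to 0.229 times in the others. TAP2 did not share this order, at 0.367 times in VPA (0.321 to 0.418) and 0.415 times in AICAR 2 (0.365 to 0.472). HLA-E ranged from 1.79 times in AICAR 2 to 3.0 times in CA-p38. The NLRC5 ratio in AICAR 2 was 1.22 with an interval that includes no change (0.787 to 1.92).

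**Figure D4:**
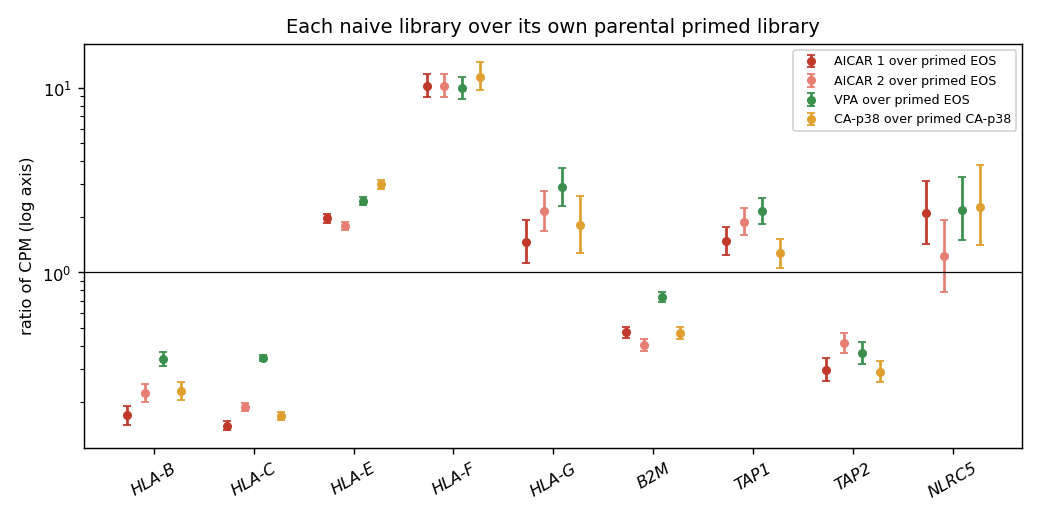
Ratio of each naive library over its parental primed library (y axis, ratio of TMM-scaled CPM, log axis, with 1 as the black line) for each of the 9 genes (x axis). Points are single libraries coloured by induction, and bars are 95% Clopper-Pearson intervals of the counts. HLA-F lies near 10 in all 4 libraries, and VPA, in green, lies highest for HLA-B, HLA-C and B2M.

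The genes whose profile over the 6 libraries lay closest to that of each gene were found by distance of centred log2 CPM among tested genes that averaged 5 CPM or more. HLA-B lay closest to SELENBP1 (distance 0.236) and NRARP (0.318). HLA-C lay closest to RADX (0.391) and then HLA-B (0.403), the only case in which another of the 9 was among the 2 nearest. HLA-F lay closest to ZNF876P (0.259), HLA-E to KIRREL2 (0.101), TAP2 to MTAP (0.117), TAP1 to ZNF674 (0.146), B2M to HMGA1P1 (0.265), NLRC5 to NBEAL1 (0.269) and HLA-G to AP002784 (0.558). AP002784 is a clone name under which several genes may be merged.

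Genes around class I processing were called in both directions. Among all genes tested 26% were higher and 27% were lower, and the counts of this and every list below stand beside these shares. Of 7 peptide loading and trimming genes 1 was higher and 4 were lower in naive cells. ERAP1, an aminopeptidase that trims peptides in the endoplasmic reticulum, was at 0.534 to 1.37 CPM in naive against 33.8 and 27.7 in primed libraries and fell by 5.10 (log2, SE 0.28, adjusted p = 9.07e-09, edgeR). ERAP2, its relative, was at 1.66 to 3.52 CPM in naive against 0.424 and 0.532 in primed libraries, with a log2 fold change of 2.23 (SE 0.44, adjusted p = 0.00083, edgeR). The 2 trimming enzymes thus went opposite ways. CALR, the chaperone calreticulin and the most abundant of the list, fell by 0.38 (log2, SE 0.10, adjusted p = 0.00478, edgeR), a call lost without primed CA-p38 (adjusted p = 0.101).

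Of 5 immunoproteasome genes 1 was higher and 2 were lower. PSMB8, a catalytic subunit encoded next to the TAP genes, was at 0.0201 to 0.376 CPM in naive against 12.4 and 6.89 in primed libraries and fell by 5.81 (log2, SE 0.52, adjusted p = 9.46e-07, edgeR). PSME2, a subunit of the proteasome activator, was the most abundant and had a log2 fold change of 0.62 (SE 0.14, adjusted p = 0.00249, edgeR). PSMB9, the partner of PSMB8 in the same cluster, did not pass (log2 fold change 0.48, SE 0.49, adjusted p = 0.43, edgeR). Of 3 constitutive catalytic subunits 2 were lower, PSMB5 by 0.66 on the log2 scale (SE 0.11, adjusted p = 0.000186, edgeR). PSMB6, the most abundant of them, did not pass (log2 fold change -0.195, SE 0.099, adjusted p = 0.116, edgeR).

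Of 10 factors that act at class I promoters 2 were higher and 5 were lower, beside 26% and 27% of all genes tested. CREB1 fell by 1.26 (log2, SE 0.12, adjusted p = 2.28e-06, edgeR) and RFX5, a subunit of the RFX complex, by 1.14. NF-Y subunits were called in both directions. NFYA fell by 0.57 (log2, SE 0.11, adjusted p = 0.00094, edgeR) and NFYB by 0.83 (SE 0.105, adjusted p = 2.1e-05, edgeR). RELA, an NF-kB subunit, and NFYC, an NF-Y subunit and the most abundant factor, had log2 fold changes of 0.57 and 0.56, and both calls were lost without primed EOS (adjusted p = 0.0598 and 0.0715, edgeR).

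Interferons are the main inducers of class I genes. Of 13 interferon receptor and signalling genes 3 were higher (IRF9, TYK2 and STAT2) and 5 were lower, beside 26% and 27% of all genes tested. IRF9 was at 16.5 to 19.4 CPM in naive against 3.58 and 4.25 in primed libraries (log2 fold change 2.18, SE 0.19, adjusted p = 6.56e-07, edgeR). IRF2, a competitor of IRF1 at its binding sites, fell by 1.88 on the log2 scale. JAK1, the most abundant of these genes, did not pass (log2 fold change -0.26, SE 0.12, adjusted p = 0.091, edgeR). Of 14 interferon-stimulated genes 13 were tested, with 8 higher and 3 lower. IFITM1, an antiviral membrane protein, was at 530 to 686 CPM in naive against 90.7 and 75.9 in primed libraries (log2 fold change 2.82, SE 0.14, adjusted p = 3.38e-09, edgeR). IFIT2 was at 0 to 0.0764 CPM in naive and at 0.909 and 0.45 in primed libraries, a call lost without primed EOS (adjusted p = 0.0672, edgeR).

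**Figure D5:**
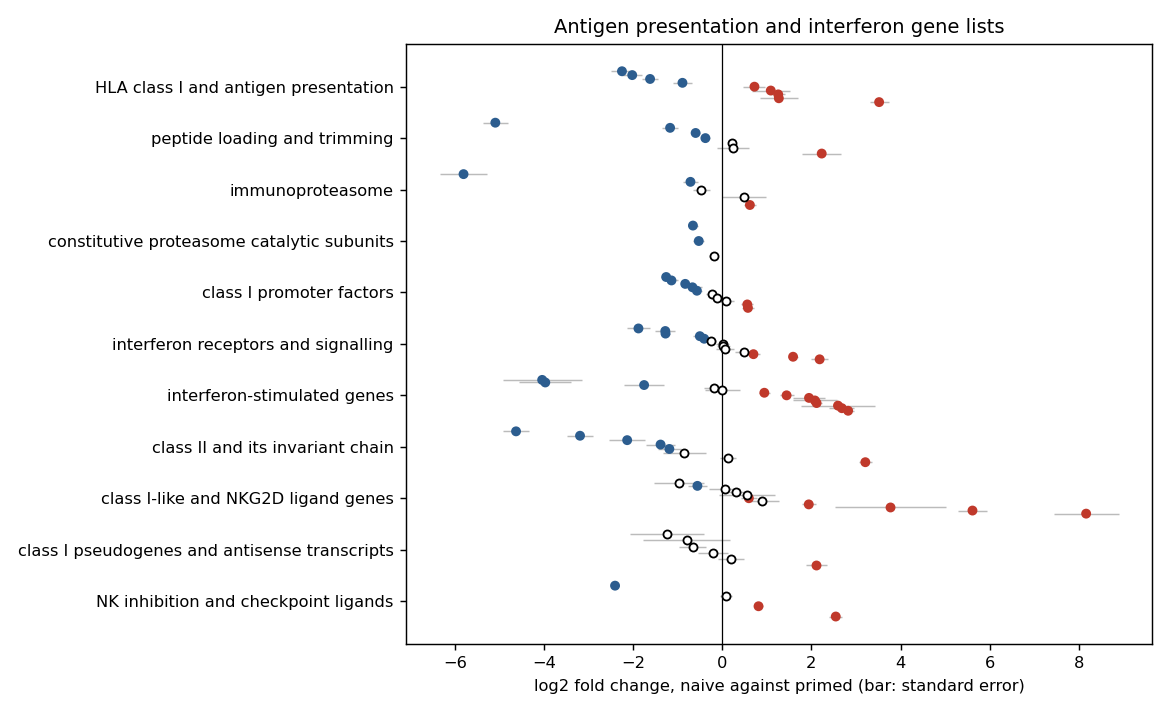
Log2 fold change of naive against primed (x axis, bar: SE) for the 9 genes and for related gene lists (rows), with 1 point per gene tested. Red and blue points passed the test as higher and lower, and open points did not pass. The 9 genes ran from -2.25 (HLA-C) to 3.52 (HLA-F).

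Of 10 class II genes 8 were tested, with 1 higher and 5 lower. HLA-DQA1 was at 213 to 274 CPM in naive against 25.5 and 28.4 in primed libraries (log2 fold change 3.21, SE 0.14, adjusted p = 1.32e-09, edgeR), and its leading identifier alone gave 4.19. CD74, the invariant chain, fell by 4.63 (log2, SE 0.30, adjusted p = 4.59e-08, edgeR). Of 12 class I-like and NKG2D ligand genes 11 were tested, with 5 higher and 1 lower. ULBP2, a ligand of the activating NK receptor NKG2D, was at 2.15 to 4.79 CPM in naive libraries with at most 1 count in a primed library, and so was at least 59.5-fold higher against 3 counts per primed library. ULBP3 fell by 0.56 (log2, SE 0.21, adjusted p = 0.039, edgeR), a call lost without AICAR 1 (adjusted p = 0.0814), VPA (0.0613) or primed CA-p38 (0.351). MICB, the most abundant of them, had a log2 fold change of 1.94 (SE 0.16, adjusted p = 3.78e-07, edgeR). Of 8 class I pseudogenes and antisense transcripts 6 were tested and only HLA-V was called, with a log2 fold change of 2.11 (SE 0.24, adjusted p = 8.33e-06, edgeR).

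Of 5 further ligands of NK cells and checkpoints 4 were tested, with 2 higher and 1 lower. PVR, a ligand of the DNAM-1 and TIGIT receptors, was at 155 to 187 CPM in naive against 24.7 and 31.5 in primed libraries. CD276, a checkpoint ligand, was at 40.1 to 45.3 CPM in naive against 221 and 226 in primed libraries. Both passed the test, with log2 fold changes of 2.55 (SE 0.14) and -2.41 (SE 0.10).

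Markers of other cell types were measured beside these genes. Of 7 fibroblast markers 4 were lower and 0 higher in naive cells, with COL1A2 the most abundant (log2 fold change -2.28) and PDGFRB the lowest (-7.40), and their summed level was 30.9 to 72.9 CPM in naive against 191 to 210 in primed libraries. Of 9 trophoblast markers 8 were tested, with 3 higher and 1 lower, and the sum was 79.9 to 106 CPM in naive against 20.8 to 23.5 in primed libraries, with ERVW-1 (log2 fold change 4.80) making up most of the naive sum. GATA2 (4.45) and KRT7 (1.08) were the other two that were higher, and ITGA1 fell by 3.44 on the log2 scale. TP63 and CGA were at most 0.322 CPM in every library. Of 6 blood cell markers 4 were tested and higher, with a sum of 7.01 to 13.3 against 1.84 to 2.24 CPM, with CD68 (log2 fold change 2.22) the most abundant. CD14 had 2 to 25 counts in naive and 0 in both primed libraries, and its call was lost without primed EOS (adjusted p = 0.0719, edgeR) or primed CA-p38 (0.0729), while PTPRC, the defining leukocyte marker, was at most 0.134 CPM in every library. The part of these levels in the class I differences was not tested.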

How the data were processed

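Bulk RNA-seq of 6 libraries was analysed. The study's methods give poly(A) selection and the SMART-Seq Stranded kit. The deposited table holds raw counts for each Ensembl identifier. The authors trimmed adapters (Trim Galore 0.4.4 and cutadapt 1.15, in the submitters' processing notes), mapped reads with Bowtie2 to Ensembl GRCh38 release 100 cDNA and noncoding RNA sequences, and required a mapping quality of 1 or more, so the placement of reads shared by near-identical copies is uncertain. Whether counting used the strand is not given in the sources used here. The 23 other value columns were not used, and 26 spike-in features were left out. Other class I genes were not analysed here.

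Counts were summed by symbol. Deposited clone names lack their version, so summing can merge unrelated clones. The 2 states were tested by edgeR 4.0.16 under R 4.3.3 (TMM, filterByExpr by state, glmQLFit, glmQLFTest, no covariate) with Benjamini-Hochberg adjustment over 26497 genes and a threshold of 0.05. SE is the log2 fold change over the square root of F. With 4 against 2 libraries an exact permutation test cannot go below p = 0.0667, so none was used for single genes. Tested on simulated naive against primed counts with 200 genes changed 4-fold among 25562, edgeR recovered 99% with 16 false calls. Recovery was not tested for differences smaller than 4-fold, or with a share of genes changed near the 53.1% called here. Alternatives used DESeq2 1.42.0 and limma 3.58.1. Lengths came from GENCODE release 44, and promoters from RefSeq (GRCh38.p14), aligned with Biopython 1.88 in Python 3.11.15. Genes at 3 counts or fewer in every primed library have folds against 3 counts per library.

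The members and lists were chosen with earlier results of these data known. Every member was named. From each other list the genes past the threshold with the highest and lowest fold change and the most abundant gene were named, and for each member its nearest profiles. HLA-F-AS1, PSMB8-AS1, PSMB9, RFX5, NFYA, NFYB, TYK2, STAT2, GATA2, KRT7, TP63, CGA and PTPRC were named after their values were seen. The motifs searched and the choice among several starts were also settled after values were seen.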

Additional observations from a re-analysis of the deposited data

Results flagged for a closer look

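Among 44 sets of values of the 4 naive libraries, 3 held a library far from the others by Dixon's test, which flags about 1 set in 20 by chance. HLA-F was at 34.4 CPM in CA-p38, below 44.9 to 46.4 CPM in the other naive libraries. PVR was at 187 CPM in VPA, above 155 to 158 CPM in the others. NECTIN2, a further ligand of NK cell receptors, was at 235 CPM in AICAR 1, above 218 to 219 CPM in the others.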

How the results depend on the processing

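The 4 genes lower in naive cells (HLA-B, HLA-C, B2M and TAP2) and HLA-E and HLA-F kept their direction and call in all 16 alternatives, and no log2 fold change of the 9 genes changed sign. The number of the 9 called higher fell from 5 to 3 on the leading identifier of each gene and to 3 with the parental line as a block, where the pairing comes from the shared line. It ranged from 2 to 4 when 1 library was left out, and the calls lost were those of HLA-G, TAP1 and NLRC5. The count of all genes called, 14058, ran from 11311 to 14593 over the alternatives that count symbols, and the fit of identifiers apart called 15585 of 29925 identifiers. Over all genes the median log2 fold change moved from 0.11 (TMM) to 0.0574 (median-ratio factors) or 0.20 (library totals), and the share of calls that were higher ran from 45.6 to 54%. Keeping clone names apart, an alternative chosen after seeing the data, gave 4 of the 9 higher. NLRC5 and HLA-G rest on at most 91 and 288 counts per library, which limits what their values can show.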
